A study of Mus musculus with 16 samples.

Results

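The genes described here make cholesterol or sense, move, export and store it, and their expression was followed in white and brown fat of mice that have or lack the glucocorticoid receptor there. The set is a list of gene names to which no threshold on a measured value was applied, although it was drawn up with earlier results of these data known: 30 genes, read by 50 probes, out of 19096 gene symbols named on the arrays. Of these, 19 genes (32 probes) encode enzymes of the pathway from acetyl-CoA to cholesterol, counting Ggps1, which acts on a side branch and not on the way to sterols. The other 11 genes (18 probes) encode sterol sensors, intracellular carriers, efflux pumps and their regulators, and a storage enzyme. All 30 were well above background in at least 1 group and could be tested.

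The 4 groups were white fat of control mice (CTL_WAT), white fat of knockout mice (AdipoKO_WAT), brown fat of control mice (CTL_BAT) and brown fat of knockout mice (AdipoKO_BAT), each on 4 one-colour Agilent arrays of total RNA. All mice were male, and the series' design text calls the controls wild-type. The knockout removes the glucocorticoid receptor, a hormone-activated transcription factor encoded by Nr3c1, in adipose tissue. The age of the mice, the promoter that drives the deletion and the deleted exons are not given in the sources used here. Levels are log2 intensity minus the log2 of the 75th percentile of the array, so that 0 is the level of that percentile and a difference of 1 on this scale is 2-fold.

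Cells make cholesterol by joining acetyl units into mevalonate, turning mevalonate into isoprenoid units, joining these into squalene, and closing and trimming squalene into a sterol. The transcription factor SREBP-2 (gene Srebf2) switches on nearly every enzyme of this route when membranes run short of sterol, and the protein INSIG1 holds SREBP-2 back, together with its escort SCAP, when sterol is plentiful. Oxysterols activate the nuclear receptor LXR-alpha (gene Nr1h3), which raises the efflux pumps ABCA1 and ABCG1. Fat cells hold a large share of the body's cholesterol, most of it unesterified at the surface of the lipid droplet.

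Several arrays of a group were nearly identical. Among 24 within-group array pairs, 9 showed differences smaller than the spot error given by the scanner software (ratio of difference to error 0.376 to 0.659), and the other 15 did not (1.10 to 4.28). Each set of near-identical arrays was averaged and counted as 1 sample, which left 9: CTL_WAT 1 with 4 and 2 with 3, AdipoKO_WAT 1 and 2 with 3 and 4, CTL_BAT 1, 2 with 3, and 4, and AdipoKO_BAT 1 and 2 with 3 and 4. The tests therefore compare 2 with 2 white samples and 2 knockout with 3 control brown samples, and whether these are separate animals or pools is not given, so p-values measure only the spread between these samples. Between 67.3% and 77.0% of spots were well above background and none was saturated.

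The brown control arrays did not all carry the defining marker of brown fat. Ucp1, the uncoupling protein of brown fat mitochondria, was at 6.54 on CTL_BAT array 1, 8.07 on array 4 and between 5.63 and 5.85 on the 4 AdipoKO_BAT arrays, but at -0.83 on CTL_BAT arrays 2 and 3, where the white fat arrays lay between -2.52 and -0.91. Cidea, a lipid droplet gene of brown fat, followed the same pattern, at 2.80 and 2.71 on CTL_BAT arrays 2 and 3 against 7.52 and 8.65 on arrays 1 and 4. The general adipocyte marker Adipoq was high on all arrays (6.58 to 8.32), and skeletal muscle markers were high in every sample labelled brown fat (median level of 10 markers 7.01 to 8.57, against -3.73 to -1.62 in white fat). Over 8 brown adipocyte markers, the sample on CTL_BAT arrays 2 and 3 had a median level of 0.27, against -1.66 to -0.29 in white fat. The summed level of these markers in it was 397.8, near the 415.1 of the brown knockout sample of arrays 2, 3 and 4. In white fat that sum was 23.9 to 47.9. The sample thus goes against its label in Ucp1 and Cidea, but not in all brown fat markers. Ucp1 and Cidea add little to its sum, which rests on the brightest of the other markers. Its muscle markers were also high (median 8.57), and which cells gave the sum was not tested, so the sum does not settle the tissue. The brown fat results below are given with it and, for the members and lists, also without it.

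Lymphocyte markers set another sample apart in each tissue. The summed level of 13 T and B cell markers, as a multiple of the 75th percentile, was 186.3 in the white knockout sample of arrays 2, 3 and 4, against 11.9 in white knockout array 1 and 6.64 and 36.5 in the white controls. In brown fat it was 122.3 in the knockout sample of arrays 2, 3 and 4 and 29.5 in knockout array 1, against 1.58 to 34.7 in the controls. The median level of 12 adipocyte markers was lowest in the same white knockout sample (5.03, against 6.56 to 6.96 in the other 3 white samples) and in the same brown one (5.86, against 6.31 to 6.87 in the other 4). In bulk tissue, fewer cells of a type and less RNA per cell cannot be told apart.

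Nr3c1 itself was lower in the knockout in both tissues. It stood at 2.43, 2.01, 2.27 and 2.42 on the 4 CTL_WAT arrays and at 1.5, 1.24, 1.23 and 1.34 on the AdipoKO_WAT arrays. In brown fat it stood at 2.46, 2.63, 2.60 and 2.29 on the control arrays and at 1.5, 1.59, 1.76 and 1.73 on the knockout arrays. Knockout and control arrays did not overlap in either tissue, with -0.90 ± 0.23 (SE) for white and -0.85 ± 0.21 for brown fat, neither of them past the threshold of 0.05 after adjustment (limma, Benjamini-Hochberg; adjusted p = 0.415 and 0.619); without CTL_BAT arrays 2 and 3 the brown difference was -0.77 ± 0.24. Whether its probe lies in the deleted part of the gene is not given, so this checks the labels only as far as total Nr3c1 signal can.

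The promoters of 6 genes are shown because the enzymes of the pathway had lower means together in the knockout, and these motifs are textbook sites of their regulation. Sequences are from RefSeq (assembly GRCm38.p6), 300 bases each, from 250 before to 50 after the annotated start, 5′ to 3′ on the strand of the gene. Capitals mark 2 motifs searched on both strands: the sterol regulatory element TCACNCCAC, the letters to which SREBP binds, and CCAAT, the box bound by its partner NF-Y (ATTGG on the other strand). Abca1, an efflux pump under LXR control, is shown beside the enzymes as a promoter that holds neither.
Hmgcs1: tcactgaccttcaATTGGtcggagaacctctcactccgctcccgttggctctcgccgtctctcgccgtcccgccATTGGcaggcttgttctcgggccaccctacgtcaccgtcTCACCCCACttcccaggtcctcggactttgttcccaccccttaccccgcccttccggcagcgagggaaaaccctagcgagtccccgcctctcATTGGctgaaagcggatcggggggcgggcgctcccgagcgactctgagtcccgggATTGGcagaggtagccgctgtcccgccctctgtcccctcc
Mvk: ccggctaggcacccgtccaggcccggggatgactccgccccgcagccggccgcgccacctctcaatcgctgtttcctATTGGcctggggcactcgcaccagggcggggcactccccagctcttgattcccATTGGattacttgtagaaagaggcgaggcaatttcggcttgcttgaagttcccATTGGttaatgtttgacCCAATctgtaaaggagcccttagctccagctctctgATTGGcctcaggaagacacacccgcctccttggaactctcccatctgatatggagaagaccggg
Lss: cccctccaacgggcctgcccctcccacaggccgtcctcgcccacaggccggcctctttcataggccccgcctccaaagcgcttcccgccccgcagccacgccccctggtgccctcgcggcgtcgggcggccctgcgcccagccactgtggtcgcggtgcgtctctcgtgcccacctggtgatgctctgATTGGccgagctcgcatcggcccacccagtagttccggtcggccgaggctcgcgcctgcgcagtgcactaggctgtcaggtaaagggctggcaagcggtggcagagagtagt
Sc5d: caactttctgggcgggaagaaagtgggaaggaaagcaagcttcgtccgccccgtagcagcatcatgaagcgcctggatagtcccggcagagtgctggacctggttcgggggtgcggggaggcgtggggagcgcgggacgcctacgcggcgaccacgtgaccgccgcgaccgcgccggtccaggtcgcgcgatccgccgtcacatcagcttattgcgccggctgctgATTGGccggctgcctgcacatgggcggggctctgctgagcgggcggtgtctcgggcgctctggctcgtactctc
Nsdhl: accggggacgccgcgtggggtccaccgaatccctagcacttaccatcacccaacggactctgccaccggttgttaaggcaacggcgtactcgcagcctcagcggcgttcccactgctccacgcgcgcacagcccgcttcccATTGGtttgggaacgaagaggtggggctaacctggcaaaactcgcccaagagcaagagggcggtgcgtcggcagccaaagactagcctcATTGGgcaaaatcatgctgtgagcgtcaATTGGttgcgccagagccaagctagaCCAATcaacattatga
Abca1: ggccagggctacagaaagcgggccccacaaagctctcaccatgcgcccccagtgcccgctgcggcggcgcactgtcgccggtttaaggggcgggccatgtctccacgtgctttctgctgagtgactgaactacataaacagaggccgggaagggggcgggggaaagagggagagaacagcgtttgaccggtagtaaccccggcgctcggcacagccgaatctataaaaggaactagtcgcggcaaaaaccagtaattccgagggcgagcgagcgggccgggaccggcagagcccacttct
These lie at chr13:119690101-119690400 (plus strand), chr5:114444019-114444318 (plus), chr10:76531355-76531654 (plus), chr9:42264251-42264550 (minus), chrX:72918271-72918570 (plus) and chr4:53159846-53160145 (minus).

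The promoter table matched 24 of the 30 genes, 16 of them synthesis genes. A CCAAT box was found in a promoter of 15 of these 16 synthesis genes, all except Acat2, and in 20 of the 24 matched genes, while 41.1% of the 27025 genes in the table had one in some promoter and 37.4% of the 32851 promoters held one. Mvk had 5 such boxes, Hmgcs1 and Nsdhl 4 each, and Lss and Sc5d 1 each. Of the matched genes outside synthesis, Soat1, Insig1, Npc2, Mylip and Srebf2 had at least 1, and Abca1, Nr1h3 and Scap had none. The sterol element TCACNCCAC was found in the promoter of Hmgcs1 alone, as TCACCCCAC starting at position -137 from the annotated start, and it overlapped no CCAAT box there. It occurred in 1.24% of all promoters. The glucocorticoid receptor palindrome (GNACA and TGTNC, 3 bases apart) and the LXR direct repeat (AGGTCA, repeated after 4 bases), searched on both strands, had no match in these 29 promoters of 24 genes, and matched 0.475% and 0.0152% of all promoters. Matches are letters in a window and were not tested for binding, and a missing match says only that these letters are not in it.

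In white fat, all 19 synthesis enzymes had lower means in the knockout, from -2.18 for Lss to -0.11 for Ggps1, with a median of -1.25, where the median of all 15469 genes tested was -0.04. A lower mean was seen in 52.6% of all genes. Of the 19, 13 were at least 2-fold lower, against 7.36% of all genes, and in 17 the 4 knockout arrays lay below the 4 control arrays, against 18.5%. No enzyme passed the threshold after adjustment (limma, Benjamini-Hochberg; lowest adjusted p = 0.278 for Sc5d). No gene at all did (0% called), while 10 of the 19 enzymes had an unadjusted p below 0.05 with a lower mean, against 6.45% of all genes. With the 16 arrays counted as separate samples, which treats repeat arrays as replicates, 15 of the 19 were called lower, against 25.7% of all genes.

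The first steps build mevalonate and then the isoprenoid units. Among the 8 genes of this arm the median was -1.25. Mvk, mevalonate kinase, stood at 0.62, 0.19, -0.06 and 0.51 on the white control arrays and at -0.61, -1.20, -1.32 and -1.25 on the knockout arrays. Every knockout array was below every control array, and the difference was -1.25 ± 0.31 (SE; adjusted p = 0.398). Fdps, farnesyl diphosphate synthase, where the branches to sterols and to other isoprenoids part, stood at 3.23, 3.25, 3.33 and 3.28 in controls and at 1.10, 1.90, 2.03 and 1.88 in knockouts. The control arrays lay within a narrow band and knockout array 1 was the lowest, and the difference was -1.76 ± 0.44 (adjusted p = 0.412).

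The other genes of the mevalonate arm were also below controls, with 1 exception in size. Hmgcs1, the HMG-CoA synthase of the cytosol, was at -1.04 ± 0.34, and Acat2, the cytosolic thiolase that supplies it, at -1.48 ± 0.67. Pmvk, which adds the second phosphate to mevalonate, was at -1.26 ± 0.58, Mvd, the decarboxylase that follows, at -1.55 ± 0.51, and Idi1, which isomerises the isoprenoid unit, at -0.93 ± 0.47. Ggps1, which makes geranylgeranyl diphosphate for protein prenylation and not for sterols, was at -0.11 ± 0.25, with overlapping arrays, and it had the opposite sign in 4 of 19 other settings of the processing.

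The later steps convert farnesyl diphosphate to squalene and then to sterols, and the 11 genes of this arm had a median of -1.07. Sc5d, the sterol C5-desaturase near the end of the route, stood at 4.82, 4.43, 4.41 and 4.84 on the white control arrays and at 3.13, 2.83, 2.72 and 2.77 on the knockout arrays. The groups were more than 1 unit apart, and the difference of -1.67 ± 0.29 had the smallest p among the 30 genes (adjusted p = 0.278). Lss, lanosterol synthase, which closes the rings of the sterol, stood at 1.02, 0.91, 0.77 and 0.89 in controls and at -1.5, -1.04, -1.08 and -1.08 in knockouts. All knockout arrays were below all controls, and its difference of -2.18 ± 0.60 was the lowest of the 30 (adjusted p = 0.422). These ranks use the brightest probe of each gene. A second Lss probe, nearly as bright, read -2.215 ± 0.26, with a smaller unadjusted p than that of Sc5d (limma).

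Nsdhl, which takes part in removing methyl groups from the sterol ring, followed with -1.94 ± 0.55, and its 4 knockout arrays lay between -0.76 and -0.62 against 1.21 to 1.34 in controls. The demethylase Cyp51 was at -1.47 ± 0.42 and Dhcr7, which reduces 7-dehydrocholesterol to cholesterol, at -1.45 ± 0.41. Fdft1, squalene synthase, was at -1.07 ± 0.30 and Sqle, squalene epoxidase, at -1.0 ± 0.43. Tm7sf2 (-0.74 ± 0.37), Msmo1 (-0.70 ± 0.31), Hsd17b7 (-0.61 ± 0.31) and Ebp (-0.26 ± 0.21), which act between lanosterol and the last steps, were closest to controls, and among them only Ebp had overlapping arrays. The other, dimmer probe of Hsd17b7 read -1.13 ± 0.23, so its place among these genes depends on the probe. A second, dim probe of Fdft1 read 0.39 ± 0.45, the single synthesis probe of 32 that was not lower.

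**Figure D1:**
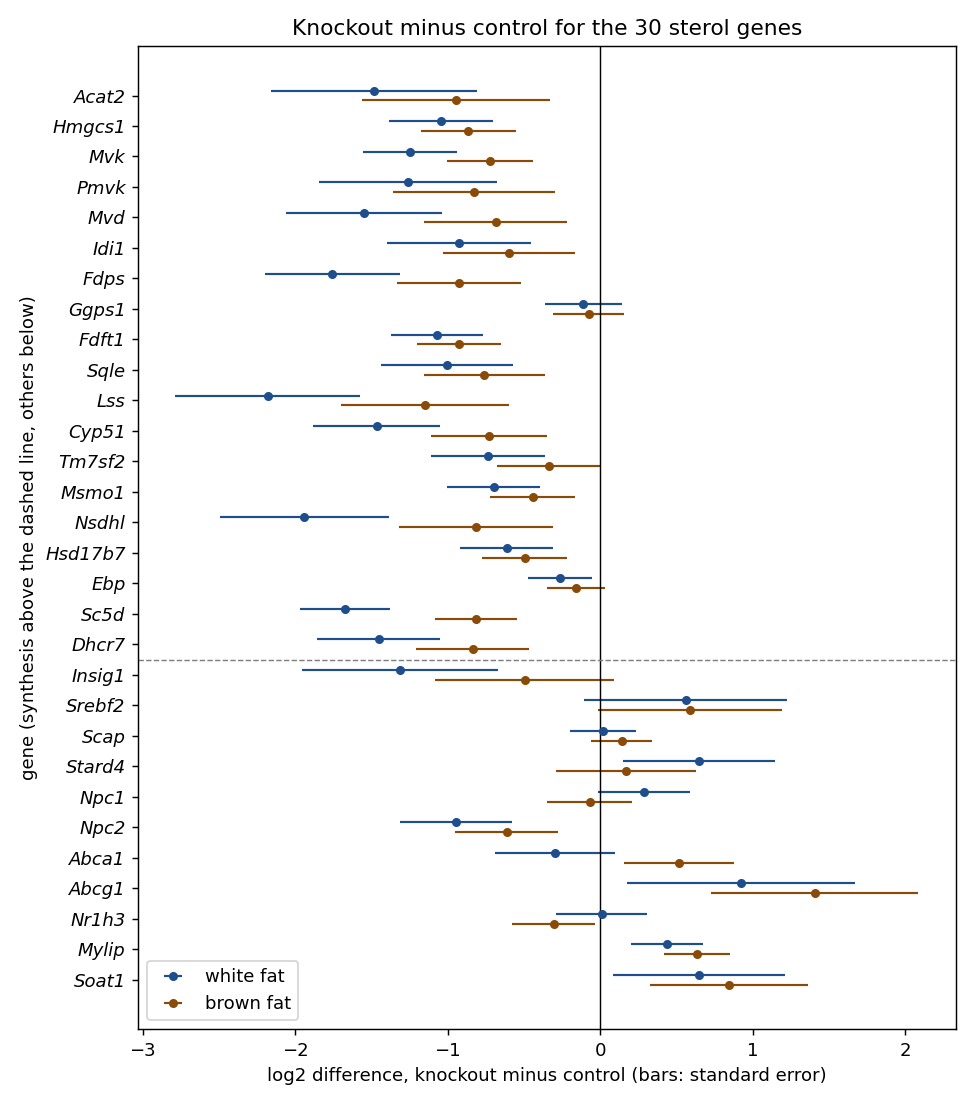
Log2 difference of knockout minus control (x axis) for the 30 genes (y axis) in white and brown fat, with bars of 1 standard error from the limma fit to 9 distinct samples. All 19 synthesis genes above the dashed line lie left of 0 in both tissues, with ranges of -2.18 to -0.11 for white and -1.15 to -0.08 for brown fat (Ebp turns in brown fat after quantile normalization, and Ebp, Ggps1 and Tm7sf2 on the authors' unscaled values), while the 11 other genes lie on both sides of 0.

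Both white knockout samples were low, and they differed in which steps were lowest. Against the mean of the controls, the synthesis genes had a median of -1.42 in knockout array 1, with 19 of 19 below both control samples, and of -1.12 in the sample of arrays 2, 3 and 4, with 18 of 19 below both. Among all genes tested, 44% and 49.1% lay below both control samples. Array 1 was the lower of these samples for 12 of 19 genes, by 1.35 for Mvd, and the sample of arrays 2, 3 and 4 for 7, by 1.36 for Acat2. Without the sample rich in lymphocyte markers, knockout array 1 was below all 4 control arrays for 19 of 19 synthesis genes, where 37.1% of all genes were. Without knockout array 1, Mvk (-1.57 ± 0.31, adjusted p = 0.0382) and Sc5d (-1.85 ± 0.34, adjusted p = 0.0346) fell past the threshold in limma, with the 3-array sample assumed to vary like the other groups. In that fit 10.7% of all genes were called, so 2 of 19 enzymes is near the background. Within the slide that held arrays of both groups (2 of each), the median was -1.13, with 19 of 19 lower. All 12 adipocyte markers also had lower means (median -0.84) and all 13 lymphocyte markers higher ones (median 1.13). Mesothelium markers were lower in 7 of 7 (median -1.79), endothelium markers lower in 7 of 8 (median -0.62) and markers of dividing cells higher in 7 of 8 (median 1.12). Macrophage markers were lower in 9 of 12 (median -0.32), brown adipocyte markers lower in 5 of 8 (median -0.09) and skeletal muscle markers higher in 8 of 10 (median 0.57). None of these markers was called, and their part in the result was not tested.

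**Figure D2:**
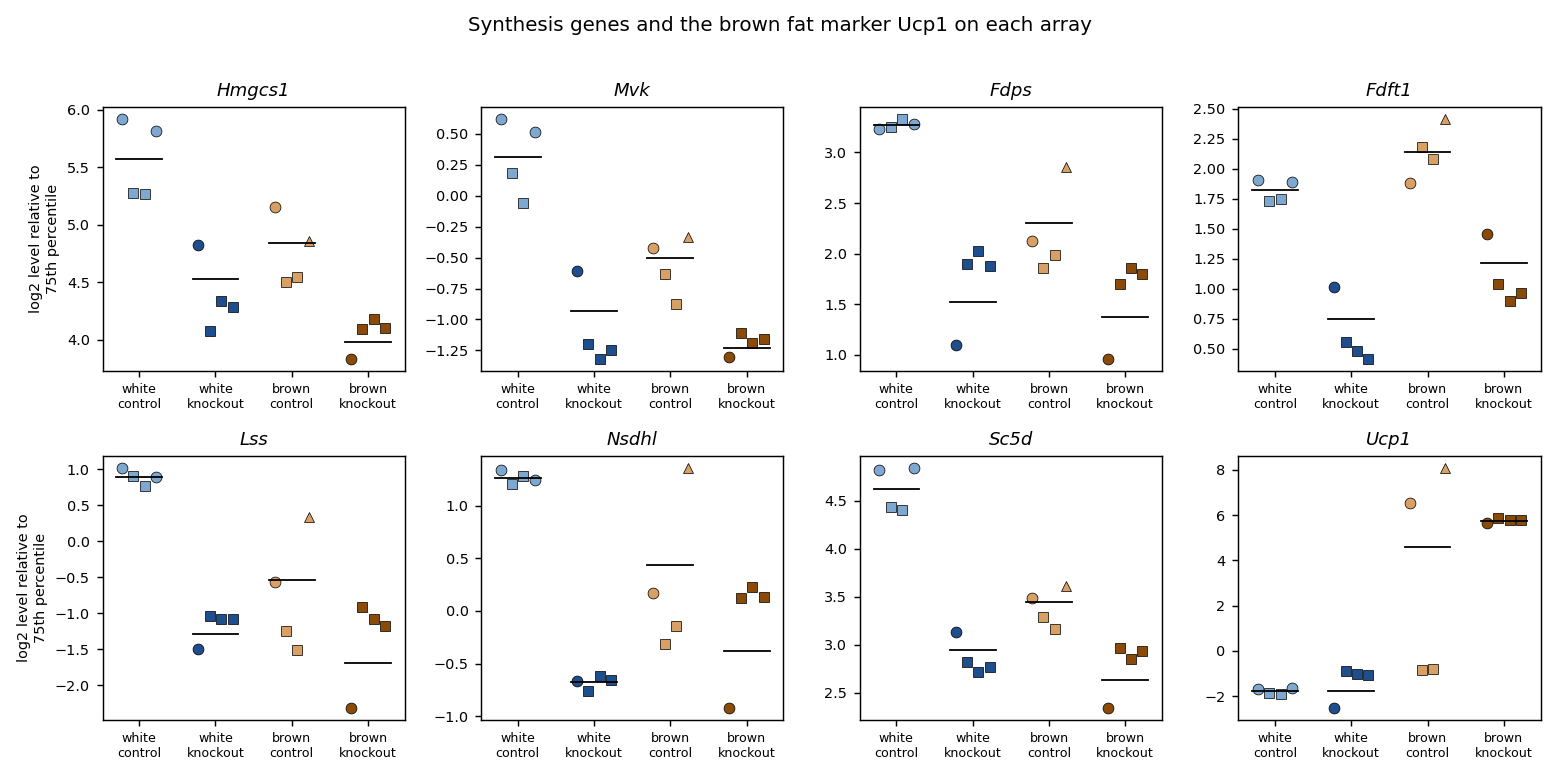
Log2 level relative to the 75th percentile of the array (y axes, scaled per gene) for 7 synthesis genes and Ucp1 on each of the 16 arrays, by group. Points of 1 shape within a group are arrays averaged as 1 sample, and black lines are means of the distinct samples; white knockout arrays lie below white control arrays for all 7 genes, and brown control arrays 2 and 3 lie near white fat for Ucp1.

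The genes that sense, carry, export and store sterol did not share the pattern of the enzymes in white fat. Their median was 0.29, and 8 of 11 had higher means (7 with normexp correction and 6 on the authors' unscaled values), where 47.4% of all genes had. None was called (0% of all genes; lowest adjusted p = 0.488), and 1 of the 11 had an unadjusted p below 0.05, against 9.99% of all genes. In the fit to 16 separate arrays 2 of them were called lower and 4 higher, against 25.7% and 19% of all genes. The difference between the enzymes and these genes was not tested.

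Npc2, the soluble protein that passes cholesterol out of lysosomes, was the member of this set with the smallest p. It stood at 5.58, 5.48, 5.48 and 5.59 on the white control arrays and at 4.88, 4.36, 4.28 and 4.25 on the knockout arrays. Knockout arrays were all lower, with a difference of -0.95 ± 0.37 (adjusted p = 0.488). Npc1, its membrane partner in the lysosome, did not follow, at 0.29 ± 0.30 with overlapping arrays. It read -0.66 on white knockout array 2 but -1.93 and -1.85 on arrays 3 and 4, which were averaged with it as 1 sample.

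Insig1, which retains SREBP in the endoplasmic reticulum and is itself an SREBP target, was the sterol sensor closest to the enzymes. It stood at 1.12, 1.14, 1.17 and 1.12 on white control arrays and at 0.54, -0.85, -0.81 and -1.0 on knockout arrays. All 4 knockout arrays were below the controls, but the sample of arrays 2, 3 and 4 was 1.43 below array 1, and the difference was -1.31 ± 0.64 (adjusted p = 0.524). Srebf2, the gene of SREBP-2, was at 0.56 ± 0.66 and Scap, its escort, at 0.02 ± 0.22. A second, dim probe of Srebf2 read -0.01.

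Mylip encodes a ubiquitin ligase, induced by LXR, that marks lipoprotein receptors for breakdown. It stood at 1.99, 2.19, 1.94 and 1.98 on the white control arrays and at 2.28, 2.59, 2.68 and 2.64 on the knockout arrays. It was the single gene of the 30 whose white knockout arrays all lay above the controls, as did those of 11% of all genes, and its difference was 0.44 ± 0.24 (adjusted p = 0.539). Abcg1, which exports sterol to lipoprotein particles, was at 0.92 ± 0.75, Soat1, which esterifies cholesterol for storage, at 0.65 ± 0.57, and Stard4, a sterol carrier of the cytosol, at 0.65 ± 0.50. Abca1, which loads cholesterol onto lipid-poor apolipoprotein, was at -0.30 ± 0.40, and Nr1h3 at 0.01 ± 0.30. Insig1, Npc2 and Abca1 were the 3 with lower means. Relative to controls, Abca1 was at 0.17 in knockout array 1, above the control samples. In the sample of arrays 2, 3 and 4 it was at -0.76, below them.

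For 4 of these genes the white difference came from 1 sample. Relative to controls, Abcg1 was at 1.78 in the sample of arrays 2, 3 and 4 and at 0.06 in array 1, Srebf2 at 1.48 and -0.36, Stard4 at 1.36 and -0.07, and Soat1 at 1.32 and -0.02. That sample is the white one with the highest lymphocyte marker sum (186.3) and the lowest adipocyte median (5.03). Without it the median of the 11 genes was -0.02, and with it alone 0.44. The part of these markers in the result was not tested. Another 2 probes of Stard4, both dim, read -0.27 and 0.04.

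**Figure D3:**
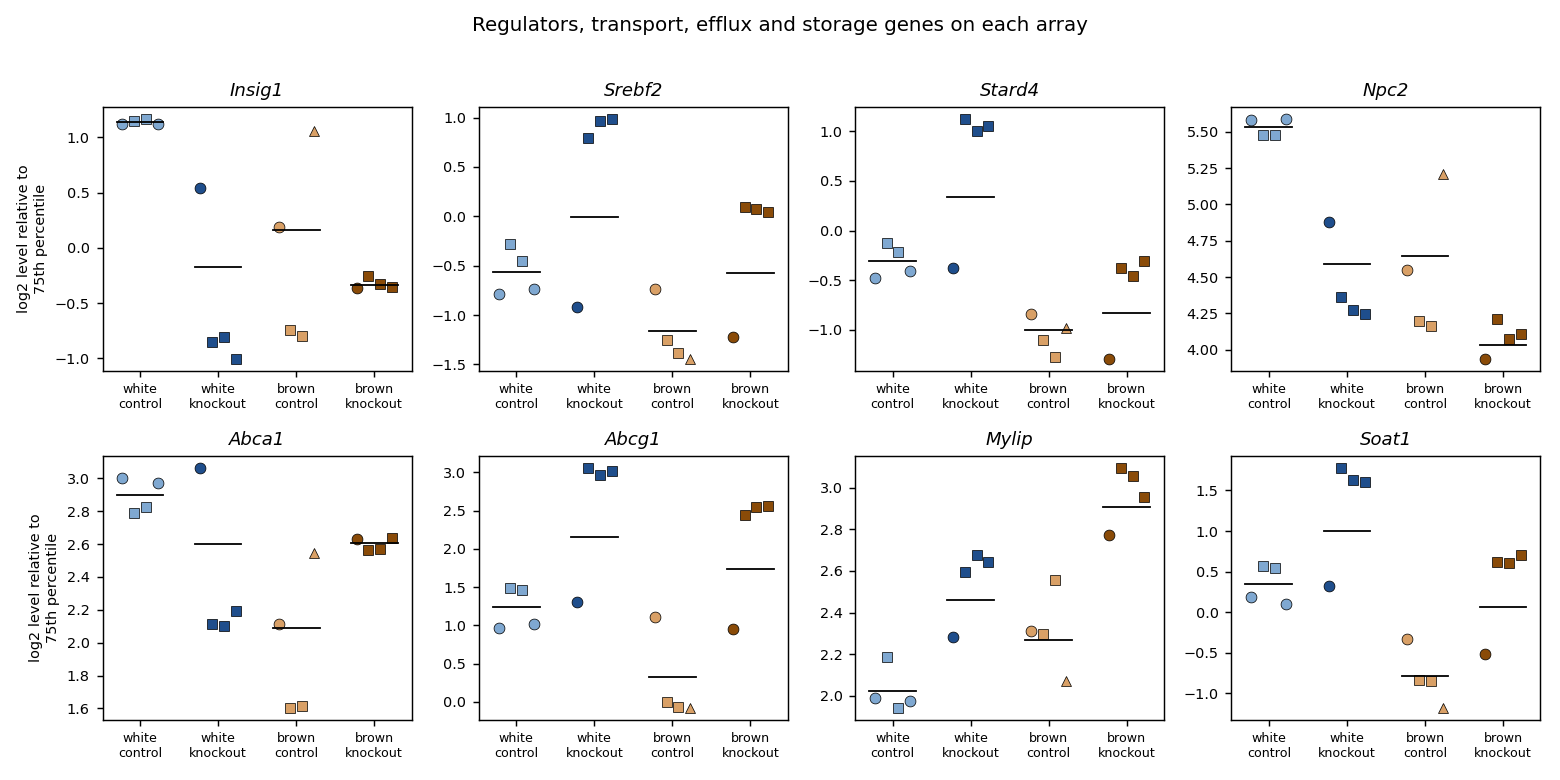
Log2 level relative to the 75th percentile of the array (y axes, scaled per gene) for 8 genes of sterol sensing, transport, efflux and storage on each of the 16 arrays, by group. Points of 1 shape within a group are arrays averaged as 1 sample, and black lines are means of the distinct samples; knockout arrays 2, 3 and 4 lie above knockout array 1 for Srebf2, Stard4, Abcg1 and Soat1 in both tissues.

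In brown fat the synthesis enzymes again all had lower means in the knockout, 19 of 19, from -1.15 for Lss to -0.08 for Ggps1, with a median of -0.76 against -0.12 for all genes; after quantile normalization 18 were lower (not Ebp), and on the authors' unscaled values 16 (not Ebp, Ggps1 and Tm7sf2). A lower mean was seen in 60.1% of all genes. The 4 knockout arrays lay below the 4 control arrays for 6 of the 19 (Hmgcs1, Mvk, Mvd, Fdft1, Hsd17b7 and Sc5d), against 16.6% of all genes. No enzyme and no gene at all was called (limma, Benjamini-Hochberg; 0% called), and the lowest adjusted p among the enzymes was 0.619, while 4 of 19 had an unadjusted p below 0.05 with a lower mean, against 4.11% of all genes. In the fit to 16 separate arrays 4 enzymes were called lower, against 17.8%.

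Without the brown control sample that lacks Ucp1 the enzymes lay further below controls. The median was then -0.92, 19 of 19 had lower means, and knockout arrays lay below control arrays for 16 of 19, all except Ggps1, Tm7sf2 and Nsdhl, against 23.9% of all genes. None was called (0% of all genes; lowest adjusted p = 0.836), and 8 had an unadjusted p below 0.05 with a lower mean, against 2.29% of all genes. In that control sample itself the enzymes had a median of -0.33 relative to the mean of the 3 brown controls, against 0.04 in array 1 and 0.27 in array 4.

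Fdft1, squalene synthase, had the smallest p among the brown enzymes, each read by its brightest probe. It stood at 1.88, 2.18, 2.08 and 2.41 on the brown control arrays and at 1.46, 1.04, 0.90 and 0.97 on the knockout arrays. All knockout arrays were lower, with a difference of -0.93 ± 0.27 (SE; adjusted p = 0.619), which was -0.93 ± 0.33 without CTL_BAT arrays 2 and 3. Sc5d stood at 3.49, 3.29, 3.17 and 3.61 in brown controls and at 2.35, 2.96, 2.86 and 2.93 in knockouts. Knockout array 1 was the lowest, the groups did not overlap, and the difference was -0.81 ± 0.27, or -0.92 ± 0.30 without the doubted sample.

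Hmgcs1, at the entry of the pathway, stood at 5.15, 4.50, 4.54 and 4.85 on the brown control arrays and at 3.83, 4.09, 4.18 and 4.10 on the knockout arrays. Again no knockout array reached a control array, and the difference was -0.86 ± 0.31, or -1.03 ± 0.34 without the doubted sample. Mvk stood at -0.42, -0.64, -0.88 and -0.34 in brown controls and at -1.31, -1.11, -1.19 and -1.16 in knockouts. Its groups did not overlap either, and the difference was -0.72 ± 0.28, or -0.85 ± 0.31. The adjusted p of Sc5d, Hmgcs1 and Mvk was 0.619 each with the doubted sample and 0.836 each without it.

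The doubted sample was below both other brown control samples for 15 of the 19 enzymes, between them for Mvd, Fdft1 and Hsd17b7, and above both for Ggps1. Lss stood at -0.56, -1.25, -1.51 and 0.33 on the control arrays, so that the knockout arrays (-2.31, -0.92, -1.07 and -1.18) overlapped them. Its difference was -1.15 ± 0.55, the lowest of the brown enzymes, and -1.57 ± 0.50 without arrays 2 and 3. The second Lss probe read -1.02 ± 0.24 with all samples, with a smaller unadjusted p than that of Fdft1 (limma). Between control tissues, brown minus white, it read -0.15 ± 0.24, where the brightest probe read -1.43 ± 0.55. Acat2 went from -0.95 ± 0.62 to -1.49 ± 0.49 and Pmvk from -0.83 ± 0.53 to -1.22 ± 0.50. Nsdhl went from -0.81 ± 0.51 to -1.15 ± 0.50, Fdps from -0.93 ± 0.41 to -1.12 ± 0.44, and Dhcr7 from -0.84 ± 0.37 to -1.0 ± 0.41.

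The remaining brown enzymes lay between -0.76 and -0.08 with that sample and between -0.93 and -0.03 without it. Sqle was at -0.76 ± 0.40 with it and -0.93 ± 0.44 without it, Cyp51 at -0.73 ± 0.38 and -0.91 ± 0.42, Idi1 at -0.60 ± 0.43 and -0.82 ± 0.47, and Mvd at -0.69 ± 0.47 and -0.70 ± 0.56. For Cyp51 another probe, nearly as bright, read only -0.19 ± 0.42 with all samples, and a dimmer one -0.58 ± 0.42. Msmo1 was at -0.44 ± 0.28 and -0.56 ± 0.31, Hsd17b7 at -0.49 ± 0.28 and -0.47 ± 0.33, Tm7sf2 at -0.33 ± 0.34 and -0.50 ± 0.37, Ebp at -0.16 ± 0.19 and -0.25 ± 0.21, and Ggps1 at -0.08 ± 0.23 and -0.03 ± 0.27.

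The brown knockout samples lay apart from each other. The enzymes had a median of -1.01 in knockout array 1, with 17 of 19 below all 3 control samples, where 28.5% of all genes were. In the sample of arrays 2, 3 and 4 the median was -0.36 and 9 of 19 lay below all 3, where 45% of all genes did, so this count is near the background. Array 1 was the lower for 17 of 19 genes, the exceptions being Fdft1 (-0.68 against -1.17) and Ebp (-0.15 against -0.17). Idi1, for example, was at -1.11 in array 1 and at -0.08 in the other sample, and Pmvk at -1.47 and -0.18. In array 1 the summed lymphocyte level (29.5) lay below the highest brown control (34.7), but the median level of the 13 markers was 0.59, above all brown controls (-3.56 to -2.16), the summed level of 8 markers of dividing cells was 7.07, against 2.16 to 3.46, and the adipocyte median (6.31) was just below their lowest (6.41).

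The marker lists of other cells had unequal means in the brown contrast too. The 12 adipocyte markers had a median difference of -0.32 with 12 of 12 lower (-0.50 without CTL_BAT arrays 2 and 3), and lymphocyte markers were higher in 12 of 13 (median 4.15; 3.41 without them). Markers of dividing cells were higher in 7 of 8 (median 2.34; 2.04 without), skeletal muscle markers lower in 10 of 10 (median -0.74; -0.63 without), mesothelium markers lower in 6 of 7 (median -0.95; -0.88 without) and endothelium markers lower in 6 of 8 (median -0.41; -0.50 without). Macrophage markers were lower in 10 of 12 (median -0.41), and in 9 of 12 without CTL_BAT arrays 2 and 3 (median -0.32). Brown adipocyte markers were lower in 5 of 8 (median -0.36), and in 8 of 8 without those arrays (median -0.87). None was called, and their part in the result was not tested. Within the slide that held 2 arrays of each group, the median of the enzymes was -0.68, with 19 of 19 lower. Its control arrays are CTL_BAT array 3, of the sample that lacks Ucp1, and array 4, and against CTL_BAT array 4 alone the median was -0.98, with 19 of 19 lower.

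The 11 handling genes in brown fat had a median of 0.17, and 7 had higher means (9 on the authors' unscaled values), against 39.9% of all genes. None was called (limma, adjusted p at least 0.619; unadjusted p below 0.05 for Mylip alone, against 2.93% of all genes with a higher mean). In the fit to 16 separate arrays 4 were called higher, against 12.7% of all genes. Npc1 (-0.07 ± 0.28), Npc2, Nr1h3 (-0.31 ± 0.27) and Insig1 (-0.49 ± 0.59) had lower means. Without CTL_BAT arrays 2 and 3 the median was 0.08, and Npc1 was at -0.12 ± 0.33, Nr1h3 at -0.47 ± 0.28 and Insig1 at -0.96 ± 0.52.

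Mylip stood at 2.31, 2.30, 2.56 and 2.07 on the brown control arrays and at 2.78, 3.09, 3.06 and 2.96 on the knockout arrays. As in white fat every knockout array was above every control array, and the difference was 0.64 ± 0.21 (adjusted p = 0.619), or 0.71 ± 0.25 without the doubted sample. Abca1 was the other gene with arrays that did not overlap, and 2 of 11 is not far from the 11.4% of all genes higher in this way. Its knockout arrays (2.566 to 2.635) lay only just above the highest control array (2.544). It was at 0.52 ± 0.36, and at 0.28 ± 0.36 without the doubted sample, in which it read 1.60 and 1.62 against 2.12 and 2.54 on the other control arrays.

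Abcg1 stood at 1.10, 0.01, -0.07 and -0.08 on the brown control arrays and at 0.96, 2.45, 2.55 and 2.56 on the knockout arrays. Knockout array 1 lay within the controls and the sample of arrays 2, 3 and 4 lay above them, so the difference of 1.40 ± 0.68 (1.22 ± 0.79 without CTL_BAT arrays 2 and 3) rests on that sample. Npc2 stood at 4.55, 4.20, 4.17 and 5.21 in controls and at 3.94, 4.21, 4.08 and 4.11 in knockouts. Its arrays overlapped through arrays 2 and 3 of the controls, and the difference was -0.61 ± 0.34, or -0.84 ± 0.33 without them.

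Srebf2, Stard4 and Soat1 also repeated the split of the white samples. In the brown sample of arrays 2, 3 and 4 they were at 1.24, 0.62 and 1.43 relative to controls, and in array 1 at -0.06, -0.29 and 0.26. Their mean differences were 0.59 ± 0.61, 0.17 ± 0.46 and 0.84 ± 0.52, and without CTL_BAT arrays 2 and 3 they were 0.51 ± 0.72, 0.08 ± 0.54 and 0.81 ± 0.61. Whether same-numbered white and brown samples come from the same mice is not given, so these splits may not be independent of each other. Scap was at 0.14 ± 0.20, and at 0.08 ± 0.23 without those arrays.

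**Figure D4:**
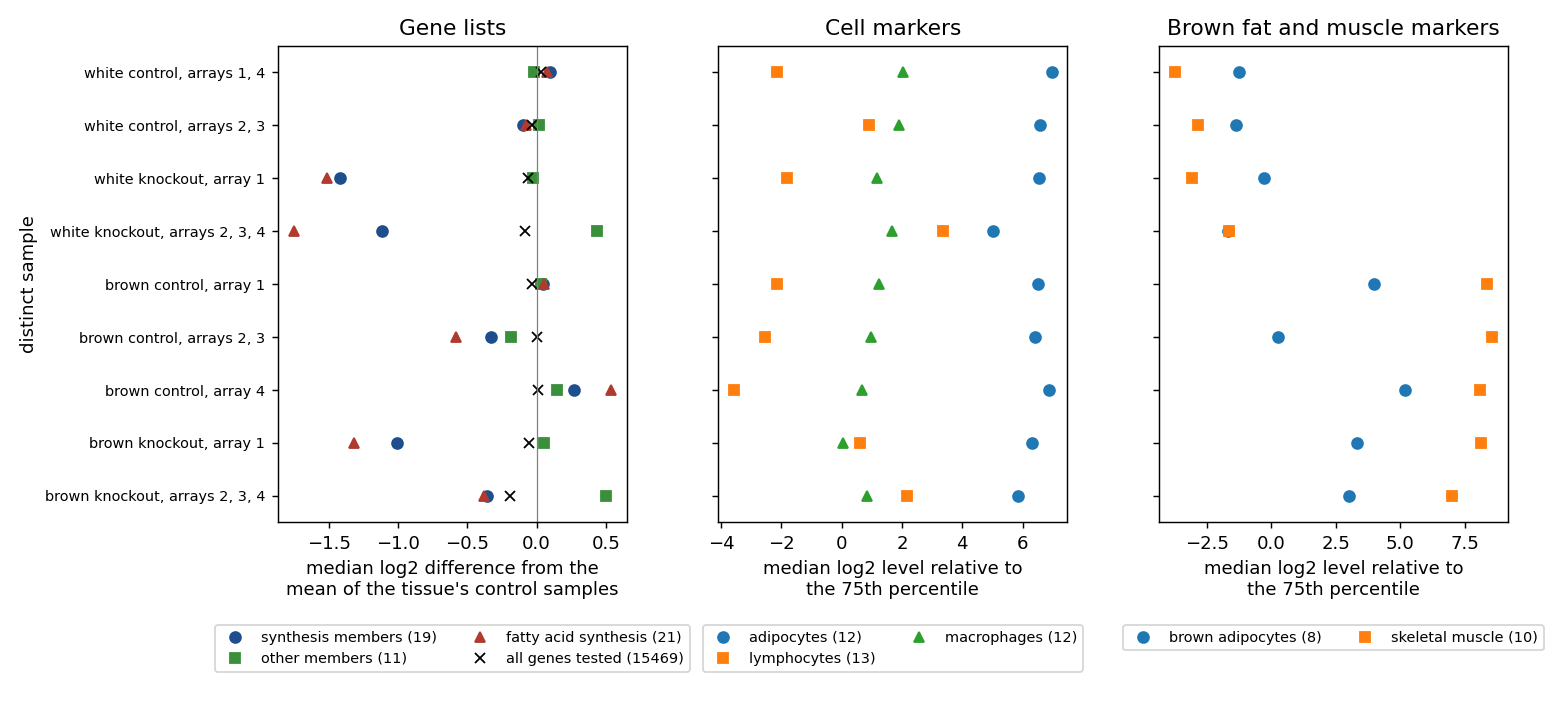
Medians per distinct sample (rows): left, log2 difference of 3 gene lists and of all genes from the mean of the control samples of the tissue; middle and right, log2 level of cell markers relative to the 75th percentile. The synthesis genes sit at -1.42 and -1.12 in the white knockout samples and at -1.01 and -0.36 in the brown ones, lymphocyte markers are highest in the samples of knockout arrays 2, 3 and 4 (3.36 and 2.16), and brown adipocyte markers in brown control arrays 2 and 3 are at 0.27.

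With this scaling all 19 enzymes had lower means in both tissues, where 42.7% of all genes did, and 6 enzymes had knockout arrays below control arrays in both, where 6.95% did. The effect in brown minus that in white fat was positive for 19 of 19 enzymes (median 0.43), which means a smaller difference in brown fat, where 51.4% of all genes were positive; with normexp background correction 18 were positive. The difference itself was called for none of them and for no gene (limma, 0% called; all adjusted p = 1.0), and 0 of 19 had an unadjusted p below 0.05, against 2.6% of all genes. The lowest unadjusted p was that of Sc5d, at 0.86 ± 0.40. Without CTL_BAT arrays 2 and 3 the median was 0.14, with 18 of 19 positive, and Sc5d was at 0.75 ± 0.43. Among the handling genes the median was 0.20, with Stard4 (-0.48 ± 0.68), Npc1 (-0.36 ± 0.41) and Nr1h3 (-0.31 ± 0.40) negative and 0 of 11 called; without those arrays the median was 0.10.

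In control mice the means of the enzymes were lower in brown than in white fat for 17 of 19, with a median of -0.82, where all genes had -0.09 and 55.1% of them were lower. The exceptions were Fdft1 (0.32 ± 0.27) and Ggps1 (0.02 ± 0.23). White control arrays were on slides 1 and 2 and brown control arrays on slides 3 and 4. Tissue and slide thus cannot be told apart directly in this contrast. Brown arrays lay below white arrays for 14 of 19, against 26% of all genes, and 10 had an unadjusted p below 0.05 with a lower mean, against 9.19%. None was called (limma; 5.05% of all genes were), and the closest was Sc5d, at -1.18 ± 0.27 (adjusted p = 0.056), followed by Cyp51, at -1.32 ± 0.38 (0.103), and Ebp, at -0.65 ± 0.19 (0.107). In the fit to 16 separate arrays 15 were called lower, against 19.5%.

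Without CTL_BAT arrays 2 and 3 that tissue difference was smaller, with a median of -0.57, 18 of 19 lower and 14 of 19 without overlap, against 28.7% of all genes. Only 3 of 19 then had an unadjusted p below 0.05 with a lower mean, against 4.87% of all genes, and the lowest adjusted p was 0.193, for Sc5d at -1.07 ± 0.30 (limma; 2.02% of all genes called). Cyp51 was then at -1.14 ± 0.42, Ebp at -0.56 ± 0.21, Fdft1 at 0.33 ± 0.33 and Ggps1 at -0.02 ± 0.27. Sc5d stood at 3.49 and 3.61 on the remaining brown control arrays, below all 4 white control arrays (4.41 to 4.84). The handling genes were lower in brown control fat for 9 of 11 (median -0.70; -0.53 without the doubted sample), the exceptions being Npc1 (0.19 ± 0.28) and Mylip (0.25 ± 0.21). Soat1 was at -1.13 ± 0.52, Npc2 at -0.89 ± 0.34 and Abca1 at -0.81 ± 0.36, and without the doubted sample these were -1.10 ± 0.61, -0.65 ± 0.33 and -0.57 ± 0.36, with Npc1 at 0.24 ± 0.33 and Mylip at 0.17 ± 0.25. None was called (lowest adjusted p = 0.181, or 0.436 without that sample).

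The marker lists of other cells had unequal means between the control tissues as well. Muscle markers were higher in brown fat for 10 of 10 (median 11.17), all called. Macrophage markers were lower for 12 of 12 (median -1.24; 1 called), endothelium markers for 8 of 8 (median -0.67; 3 called), mesothelium markers for 5 of 7 (median -5.61; 4 called), lymphocyte markers for 11 of 13 (median -1.98; 0 called) and markers of dividing cells for 8 of 8 (median -0.88; 0 called). Without CTL_BAT arrays 2 and 3, 10 muscle markers, 5 brown adipocyte markers and 1 mesothelium marker were called, and 0 of the other lists named here. Their part in the result was not tested.

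In knockout mice the median had the same direction, and here too no slide held arrays of both tissues. The enzymes had a median brown minus white difference of -0.38, with 16 of 19 lower (13 on the authors' unscaled values; 52.9% of all genes) and Fdft1 (0.46 ± 0.30), Nsdhl (0.29 ± 0.55) and Ggps1 (0.06 ± 0.25) higher. Only Ebp and Tm7sf2 had brown arrays below all white arrays, against 13.3% of all genes. No member was called (limma; 1.54% of all genes were; lowest adjusted p = 0.290), and 2 of the 30, Ebp and Nr1h3, had an unadjusted p below 0.05, against 15.3% of all genes. Of the handling genes 9 of 11 were lower (median -0.42), with Mylip (0.44 ± 0.24) and Abca1 (0.01 ± 0.40) higher. The largest difference was that of Stard4, at -1.17 ± 0.50. Without white knockout arrays 2, 3 and 4 the median of the enzymes was 0.03. Muscle markers were higher in brown knockout fat for 10 of 10 (median 9.57, all called) and brown adipocyte markers for 8 of 8 (median 3.345, 2 called). Adipocyte markers were higher for 7 of 12 (median 0.06, 0 called) and lymphocyte markers for 12 of 13 (median 0.61, 0 called). Markers of dividing cells were higher for 5 of 8 (median 0.03, 0 called). Macrophage markers were lower for 12 of 12 (median -1.14, 0 called) and mesothelium markers for 5 of 7 (median -5.76, 1 called). Endothelium markers were lower for 7 of 8 (median -0.39, 0 called). The part of these lists in the result was not tested.

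Further genes of sterol metabolism were divided in direction. Of 45 such genes 41 could be tested, and 25 had lower and 16 higher means in white fat (median -0.07), 26 and 15 in brown fat (median -0.14), with 0 called in either (limma). Of 11 further genes of synthesis and isoprenoid branches, 9 were lower in white fat (median -0.35) and 8 in brown (median -0.32). Lower means were seen in 52.6% and 60.1% of all genes. Of 7 further regulators, 5 were lower in each tissue. The 23 genes of uptake, transport, storage, efflux and oxysterols split 11 lower to 12 higher in white fat and 13 to 10 in brown. Among the 41, an unadjusted p below 0.05 was found for 6 in white fat, against 9.99% of all genes, and for 4 in brown fat, against 7.05%, counts not far from the background. Without CTL_BAT arrays 2 and 3 the brown median was -0.19. Among those with the smallest p in white fat were Lpcat3, which remodels phospholipids and is an LXR target (-1.35 ± 0.38), and Cyp27a1, which makes 27-hydroxycholesterol (-0.97 ± 0.29). Among those with the smallest p in brown fat were Cyp27a1 (-0.92 ± 0.27; -0.97 ± 0.32 without those arrays) and the lipoprotein receptor Lrp8 (2.70 ± 0.86; 2.40 ± 0.98).

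Genes of fatty acid synthesis, which draw on the same acetyl-CoA, had the direction of the sterol enzymes. In white fat 21 of 21 had lower means (median -1.67; -1.51 in array 1 and -1.76 in the other knockout sample) and in brown fat 21 of 21 (median -0.96; -1.32 and -0.38; 20 lower after normexp or quantile normalization and 18 on the authors' unscaled values), with 0 called (limma). An unadjusted p below 0.05 with a lower mean was found for 16 in white and 4 in brown fat, against 6.45% and 4.11% of all genes. Without CTL_BAT arrays 2 and 3 the brown median was -1.29, with 21 of 21 lower. An unadjusted p below 0.05 with a lower mean was then found for 12, against 2.29% of all genes. In the brown control sample without Ucp1 they were at -0.59, as the sterol enzymes were at -0.33. Across the 4 knockout samples, brown arrays 2, 3 and 4 were the closest to controls for both lists. The difference between the lists was not tested.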

How the data were processed

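Each array's deposited scanner file gives spot intensity; per the file headers, Agilent Feature Extraction 12.0.0.7 subtracted background and spatial trends. In the authors' value table each probe has its averaged processed intensity, linear and not scaled between arrays, as a comparison over all 41174 probes and 16 arrays showed (relative tolerance 0.0001). Outlier spots were dropped, spots of a probe averaged, and log2 intensity was taken relative to the 75th percentile of the array. RefSeq accessions named 28223 probes through a GRCm38.p6 table; 12951 stayed unnamed. A probe was kept if well above background on all 4 arrays of a group, and the brightest kept probe stood for its gene, which left 15469 genes.

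Arrays of a group whose differences had a median absolute deviation below 1 in units of the scanner's error were averaged. Limma 3.58.1 in R 4.3.3 fitted 4 group means over 9 samples with 5 residual degrees of freedom, with Benjamini-Hochberg adjustment over all genes per contrast and a threshold of 0.05. The fit was tested on simulated data. Members, lists and tests were chosen with earlier results of these data known. Per-array values were given for Nr3c1 and, in each knockout contrast, for the 4 enzymes and 3 other members with the smallest p, and for other members chosen after their values were seen; of the related genes, those past the threshold or the 3 with the smallest p in each knockout contrast were named, except some that are not reported here. The number of arrays limits the precision.

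Alternatives were 16 separate arrays, the replicate and slide blocks, normexp background correction (offset 50, on the median signal that the scanner tables read here carry, a departure from the plan, which named the mean signal), quantile normalization, the authors' unscaled values, no filter, the mean of probes, and each sample left out; 2 more were added after seeing the data.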

Additional observations from a re-analysis of the deposited data

How the results depend on the processing

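The 19 enzymes kept a negative median in white and brown fat under all 19 alternatives (17 planned, 2 chosen after seeing the data). The sign of a member changed in white fat for Scap and Nr1h3 (5 alternatives each), Ggps1 (4), and Srebf2, Stard4, Abca1 and Soat1 (2 each), and in brown fat for Npc1 (5), Ggps1, Ebp, Srebf2 and Stard4 (2 each), and Tm7sf2 and Nr1h3 (1 each). Counting 16 arrays separately called 15 enzymes and 6 other genes in white fat, 4 and 4 in brown, 1 enzyme in the difference between effects, 15 and 5 between control tissues and 2 and 4 between knockout tissues, where 44.7%, 30.5%, 4%, 39.3% and 25.6% of all genes were called. With the replicate number as a block these were 15 and 8, 5 and 4, 1, 15 and 6, and 1 and 4, where 45.9%, 32.1%, 2.06%, 39.9% and 25.1% of all genes were called. With the knockout number as a random replicate block over the 9 samples 0 members were called in any contrast. Same-numbered white and brown knockout arrays deviated together from their group means (correlations 0.295 to 0.570 over genes in 4 array pairs), but these come from only 2 distinct pairs of samples, so pairing was not settled. Between control tissues 2 enzymes were called with slide as a block, 1 after quantile normalization, 2 on the authors' unscaled values and 2 without the 3-array knockout samples, where 6.66%, 4.75%, 6.06% and 15.1% of all genes were called. No slide held control arrays of both tissues, so the slide block reaches this contrast only through slides shared with knockout arrays.

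Leaving out each sample called 0 to 2 enzymes in white fat (2 without knockout array 1, where 10.7% of all genes were called) and 0 to 1 between control tissues (1 without either white knockout sample, where 11.2% were). It moved the median of the enzymes from -1.01 to -0.36 in brown fat and from -0.56 to 0.032 between knockout tissues. For the other genes it moved the median from -0.023 to 0.44 in white, from 0.051 to 0.50 in brown, from -0.22 to 0.43 in the difference between effects, from -0.82 to -0.53 between control tissues and from -0.57 to -0.13 between knockout tissues. Without both 3-array knockout samples the white median of the other genes was -0.023, and with slide as a block 0.48. Their brown median was 0.44 over 16 arrays with or without the replicate block, 0.34 after quantile normalization and 0.45 with all probes averaged, where it was -0.18 between knockout tissues.

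Unscaled values moved the median of all genes to -0.23 in white, 0.31 in brown, 0.64 in the difference, -0.43 between control and 0.25 between knockout tissues. The medians of the enzymes were then -0.33 in brown, 1.06 in the difference and -1.16 between control tissues, and those of the other genes 0.10 in white, 0.60 in brown, 0.82 in the difference, -1.04 between control and -0.14 between knockout tissues. The cause of these changes was not tested. With 2 or 3 samples in a group and 5 residual degrees of freedom, a missed threshold does not show that levels were alike.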
